A study of Mus musculus with 12 samples.

Results

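A set of 10 genes for surface glycoproteins that mark stages of thymocyte development was followed: Cd44, Cd24a, Thy1, Cd1d1, Ptprc, Cd38, Spn, Selplg, Icam1 and Icam2. They were taken by symbol from the deposited gene counts, and all 10 were found among 27179 genes. The counts come from RNA-seq of 1 primary mouse leukemia of the T lineage (acute lymphoblastic, T-ALL), named ALL101, whose cells were sorted from the spleens of recipient mice. Every mouse carried leukemia with the Vav-tTA and TRE-GFP-shIkaros transgenes, in which a transactivator under a blood-cell promoter drives a GFP-linked hairpin against Ikaros, the lymphoid zinc-finger factor encoded by Ikzf1. The untreated group (3 mice, given as sorted GFPhigh) kept the hairpin on. The other group (3 mice, sorted as GFPmid) had received doxycycline for 3 days, which turns the hairpin off so that Ikaros returns. The ages and sex of the recipients were not given in the sources used here. All 6 mice carry descendants of a single leukemia, and the treatment and the GFP gate cannot be told apart. No group carried leukemia without the hairpin, so doxycycline itself and the return of Ikaros cannot be told apart either.

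As background, these glycoproteins are the antigens by which thymocytes are staged in flow cytometry. CD44 and CD24 are read in the earliest cells, Thy-1 on all thymocytes, CD1d most strongly at the double-positive stage, and declining CD24 in cells that mature. They differ in attachment: Thy-1 and CD24 are held by a glycosylphosphatidylinositol (GPI) lipid, and the others span the membrane. Much of what antibodies and lectins see on CD43, CD45 and PSGL-1 is sugar or alternative splicing, which counts per gene do not show.

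Levels are given as CPM, counts scaled by the library total and TMM factors, where comparisons are between mice. Where different genes are compared, RPKM is used, which is that CPM divided by the deposited gene length in kilobases. Totals were 29904744 to 44949303 counts per mouse, so that 3 counts, the limit that a count of 0 allows, correspond to 0.0667 to 0.10 CPM. Ikzf1 lay at 150 to 159 CPM in the untreated mice and at 1438 to 1523 CPM in the doxycycline mice, in the direction of the labels. The 9 T-cell markers were each above 1 CPM and summed to 4301 to 4378 CPM in untreated and 5196 to 5808 CPM in doxycycline mice. Of them 5 rose and 1 fell (edgeR adjusted p under 0.05): Trac, a T-cell receptor gene, rose from 136 ± 22.9 to 560.3 ± 6.67 CPM (SD, n = 3), and Cd3g fell from 528 ± 18.6 to 386 ± 19.2 CPM. The part of this change in the results below was not tested. The library of untreated mouse 3 is named INJ where the others are named as a GFP sort, and whether its cells were sorted alike is not known. Doxycycline mouse 2 stood apart in earlier work on these data that is not shown here. For these reasons counts are also given without both mice.

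The promoters are shown first because the gene targeted by the hairpin encodes a DNA-binding protein whose known core motif is GGGAA. The 250 bases before a listed start site, from RefSeq on GRCm38, were on hand for 5 of the 10 genes in 6 windows. Cd44 is shown as the gene with the largest change, Ptprc (its upstream window) as a gene that rose and held no match, and Icam1 as a gene that held matches and did not pass the test. Capitals mark GGGAA on either strand, with the preceding T where the longer motif TGGGAA is present.

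Cd44, chr2:102901666-102901915, minus strand: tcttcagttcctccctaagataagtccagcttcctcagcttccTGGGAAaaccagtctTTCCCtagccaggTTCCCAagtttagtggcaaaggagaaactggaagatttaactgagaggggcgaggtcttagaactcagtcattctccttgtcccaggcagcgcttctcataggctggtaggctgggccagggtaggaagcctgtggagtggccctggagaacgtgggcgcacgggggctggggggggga

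Ptprc, chr1:138175306-138175555, minus strand: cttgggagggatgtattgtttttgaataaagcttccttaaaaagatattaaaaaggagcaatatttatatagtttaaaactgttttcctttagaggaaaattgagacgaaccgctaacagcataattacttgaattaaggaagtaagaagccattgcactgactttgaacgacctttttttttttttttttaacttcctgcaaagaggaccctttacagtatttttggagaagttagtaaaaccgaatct

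Icam1, chr9:21015690-21015939, plus strand: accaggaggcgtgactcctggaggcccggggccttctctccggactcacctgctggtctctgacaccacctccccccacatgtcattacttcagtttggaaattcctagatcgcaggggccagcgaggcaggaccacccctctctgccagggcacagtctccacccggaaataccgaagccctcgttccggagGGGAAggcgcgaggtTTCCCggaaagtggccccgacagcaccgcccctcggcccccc

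In the Cd44 window GGGAA was found 3 times, its first bases lying 206, 192 and 179 bases before the start site, and 2 of these were the longer TGGGAA. Icam1 held 2 matches, 57 and 42 bases before the start site, Spn 3 and Cd38 1. Neither Ptprc window held one. Both Ptprc windows and the Spn window lie inside the RefSeq span of their gene. They precede internal start sites, and the bases before the outermost start of these genes were not searched. Of all 32851 RefSeq windows of this length, 56.2% held GGGAA and 21.6% held TGGGAA on either strand. Matches are letters in a window and were not measured as binding. They were found in genes that passed the test and in one that did not.

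After doxycycline 7 of the 10 genes rose and 1 fell (edgeR's quasi-likelihood F test, threshold of 0.05 for the adjusted p). Over all 13134 genes that passed the filter on low counts, 24.8% were higher and 25.2% lower, 50.0% in either direction. All 10 genes passed that filter. Their median log2 fold change (doxycycline minus untreated) was 0.29, beside -0.0037 over all tested genes. The values of the 3 untreated and the 3 doxycycline mice did not overlap for 9 of the 10 genes, where 61.2% of all tested genes had no overlap. A rise of at least 2-fold was seen for 3 of the 10 genes (Cd44, Cd38 and Cd1d1), where 8.22% of all tested genes rose as much. None fell by as much, where 5.87% did (14.1% in either direction). Of these 3 genes, Cd38 rested on only 4 to 54 counts per mouse. Without untreated mouse 3 and doxycycline mouse 2, 5 genes rose and 1 fell, with Cd38 and Spn no longer passing.

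**Figure D1:**
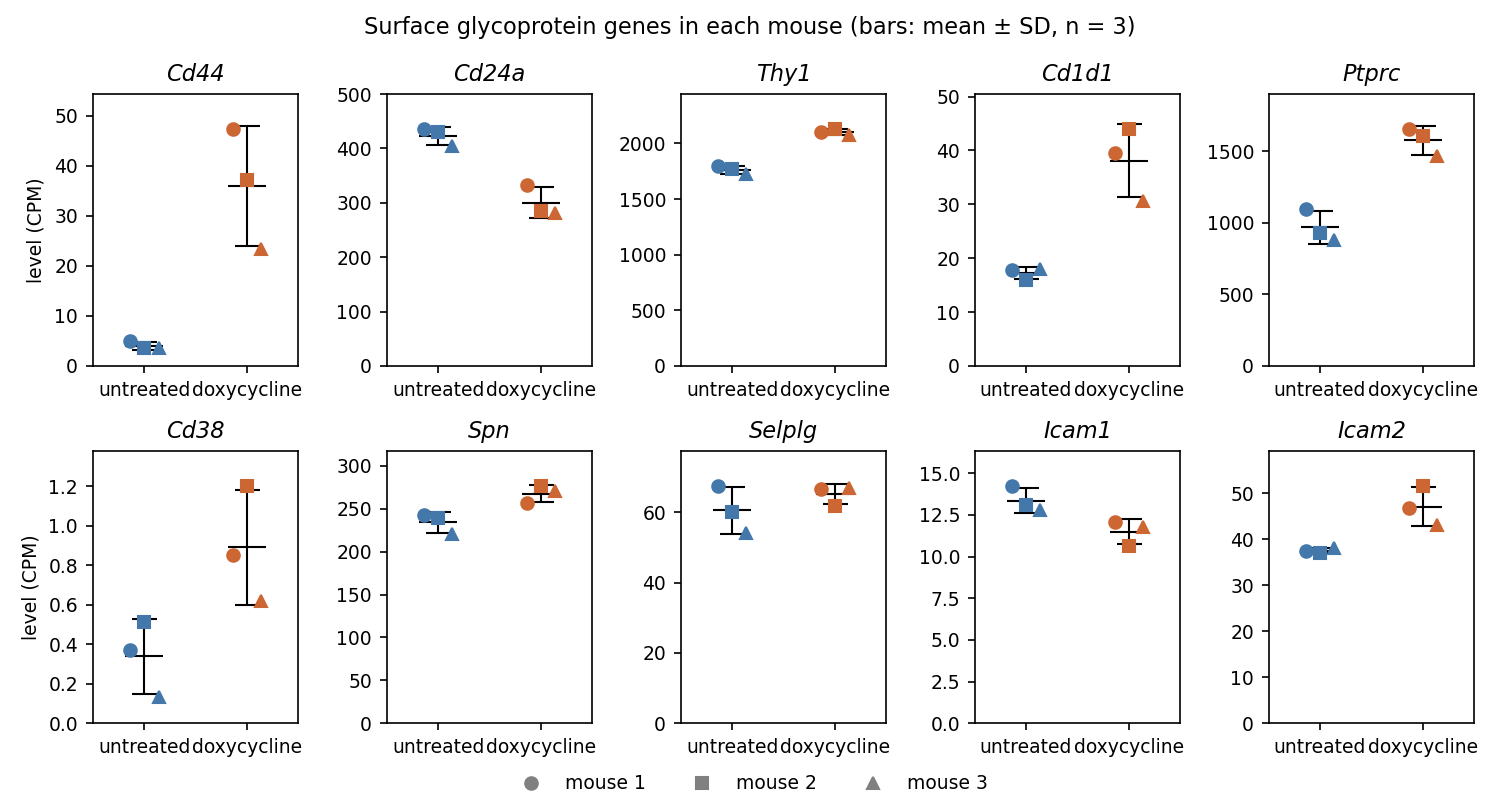
Level of each gene in CPM (vertical axes, each starting at 0) in the 3 untreated (blue) and 3 doxycycline mice (orange), with mean and SD as black bars. Selplg is the panel in which the groups overlap, while Cd44 ranges from 3.53 to 5.0 CPM in untreated and from 23.4 to 47.3 CPM in doxycycline mice.

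Cd44 and Cd24a moved in opposite directions. Cd44 encodes the hyaluronan receptor, which is high on progenitors entering the thymus, lost as they commit and regained by activated T cells. It stood at 5.0, 3.64 and 3.53 CPM in untreated mice 1, 2 and 3, and at 47.3, 37.1 and 23.4 CPM in doxycycline mice 1, 2 and 3. Every doxycycline mouse lay far above every untreated one, and within the treated group mouse 1 was the highest and mouse 3 the lowest. Cd44 rose by 3.15 ± 0.29 log2 units (SE, edgeR adjusted p = 0.00037), with a 95% interval of 2.45 to 3.85. It rested on 106 to 149 counts per untreated mouse and 1019 to 1673 per doxycycline mouse. The coefficient of variation was 20.1% among untreated and 33.3% among doxycycline mice. Cd44 lies on chromosome 2 at 102811141 to 102901669 of GRCm38, and none of its 40-base stretches occurred in a transcript of another gene.

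Cd24a encodes heat-stable antigen, a very short GPI-anchored mucin that is high on immature thymocytes and declines as they mature. Its level was 436, 430 and 405 CPM in the untreated mice and 333, 285 and 282 CPM in the doxycycline mice. All treated mice were lower. Cd24a fell by 0.50 ± 0.08 log2 units (adjusted p = 0.0015 by edgeR), the only fall among the 10 genes that passed the test. A share of 3.52% of its 40-base stretches also occurred in the pseudogene Gm6212. The gene lies on chromosome 10 at 43579169 to 43584265.

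Thy1, Cd1d1 and Ptprc, antigens that thymocytes carry through the middle stages, all rose. Thy1 encodes Thy-1, the GPI-anchored marker of the T lineage in mice. It was at 1795, 1769 and 1724 CPM in untreated and 2102, 2129 and 2075 CPM in doxycycline mice. The groups were tight and apart, and the rise was small, 0.25 ± 0.06 log2 units (edgeR adjusted p = 0.0085). Without untreated mouse 2 the adjusted p was 0.0519.

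Cd1d1 encodes CD1d, the class I-like molecule that presents lipids and that double-positive thymocytes display to developing natural killer T cells. Its values were 17.8, 16.0 and 18.1 CPM in untreated and 39.6, 44.0 and 30.7 CPM in doxycycline mice. The lowest treated mouse was well above the highest untreated one. Cd1d1 rose by 1.14 ± 0.13 log2 units (edgeR adjusted p = 0.00036). Its neighbour Cd1d2 is a near copy. A share of 21.2% of the 40-base stretches of Cd1d1 occurred in Cd1d2 as well, so the division of reads between these genes is uncertain. The file's Cd1d2 row, from 1.47 ± 0.19 to 6.08 ± 1.26 CPM (SD, n = 3), also rose, by 2.04 ± 0.22 log2 units (edgeR adjusted p = 0.00026). Cd1d1 lies on chromosome 3 at 86995834 to 87012358 in RefSeq.

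Ptprc encodes CD45, the membrane tyrosine phosphatase of all nucleated blood cells, which acts on the kinases Lck and Fyn. It was at 1098, 930.3 and 878 CPM in untreated and 1655, 1606 and 1464 CPM in doxycycline mice. In both groups mouse 1 was the highest and mouse 3 the lowest, and the groups were clearly apart. The rise was 0.70 ± 0.10 log2 units (edgeR adjusted p = 0.00068, 95% interval 0.48 to 0.92). Ptprc lies on chromosome 1 at 138062859 to 138175756. Its exons are spliced into several CD45 isoforms, which were not told apart by these counts.

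Cd38, on chromosome 5 at 43868809 to 43912374, encodes an ectoenzyme that consumes NAD and is found on many immature and activated lymphocytes. It was barely detected. The counts were 11, 17 and 4 in the untreated mice and 29, 54 and 27 in the doxycycline mice, which gave 0.369, 0.512 and 0.133 CPM against 0.853, 1.20 and 0.621 CPM. No values overlapped, but the lowest treated and the highest untreated mouse were close. The fitted rise of 1.38 ± 0.46 log2 units (edgeR adjusted p = 0.034) has a 95% interval of 0.33 to 2.42. The adjusted p was 0.061 with DESeq2 and between 0.073 and 0.099 when untreated mouse 1, untreated mouse 3, doxycycline mouse 1 or doxycycline mouse 2 was left out. Without untreated mouse 3 and doxycycline mouse 2 together, the log2 difference was 0.72 (adjusted p = 0.148).

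The sialomucins Spn and Selplg gave small values. Spn encodes CD43, the long, heavily O-glycosylated rod of the leukocyte surface. It was at 242, 239.6 and 220.3 CPM in untreated and 256, 276 and 270.1 CPM in doxycycline mice. The groups did not overlap, though doxycycline mouse 1 was only slightly above untreated mouse 1. Spn rose by 0.19 ± 0.07 log2 units (edgeR adjusted p = 0.040). This call was lost when any 1 mouse other than doxycycline mouse 1 was left out, with adjusted p between 0.060 and 0.132, and with 4 other settings that the closing section gives. The gene lies on chromosome 7 at 127123637 to 127145552.

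Selplg encodes PSGL-1, the P-selectin ligand by which progenitors enter the thymus. Its values of 67.4, 60.0 and 54.2 CPM in untreated and 66.7, 61.8 and 66.8 CPM in doxycycline mice overlapped, and untreated mouse 1 was the highest of all 6. The log2 difference of 0.11 ± 0.09 did not pass (edgeR adjusted p = 0.356). Its 95% interval of -0.10 to 0.31 leaves room for neither a 2-fold rise nor a 2-fold fall. Selplg is on chromosome 5 at 113817798 to 113832528.

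Of the intercellular adhesion molecules that bind the integrin LFA-1, one passed the test and the other did not. Icam2, the constitutive ligand, was at 37.4, 37.0 and 38.1 CPM in untreated and 46.7, 51.5 and 43.0 CPM in doxycycline mice. The untreated values were nearly equal and all below the treated ones. It rose by 0.33 ± 0.08 log2 units (edgeR adjusted p = 0.011). Icam1, the ligand that inflammatory signals induce, was at 14.2, 13.1 and 12.8 CPM in untreated and 12.1, 10.6 and 11.8 CPM in doxycycline mice. The treated mice were lower without overlap, but the log2 difference of -0.22 ± 0.11 did not pass (edgeR adjusted p = 0.125, 95% interval -0.46 to 0.03). Icam1 lies on chromosome 9 at 21015940 to 21028814, and Icam2 on chromosome 11 at 106377656 to 106388139. An antisense gene, Gm47079, covers 11.7% of the exonic bases of Icam1 in GENCODE, and without a stated strand setting its reads cannot be separated from those of Icam1.

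**Figure D2:**
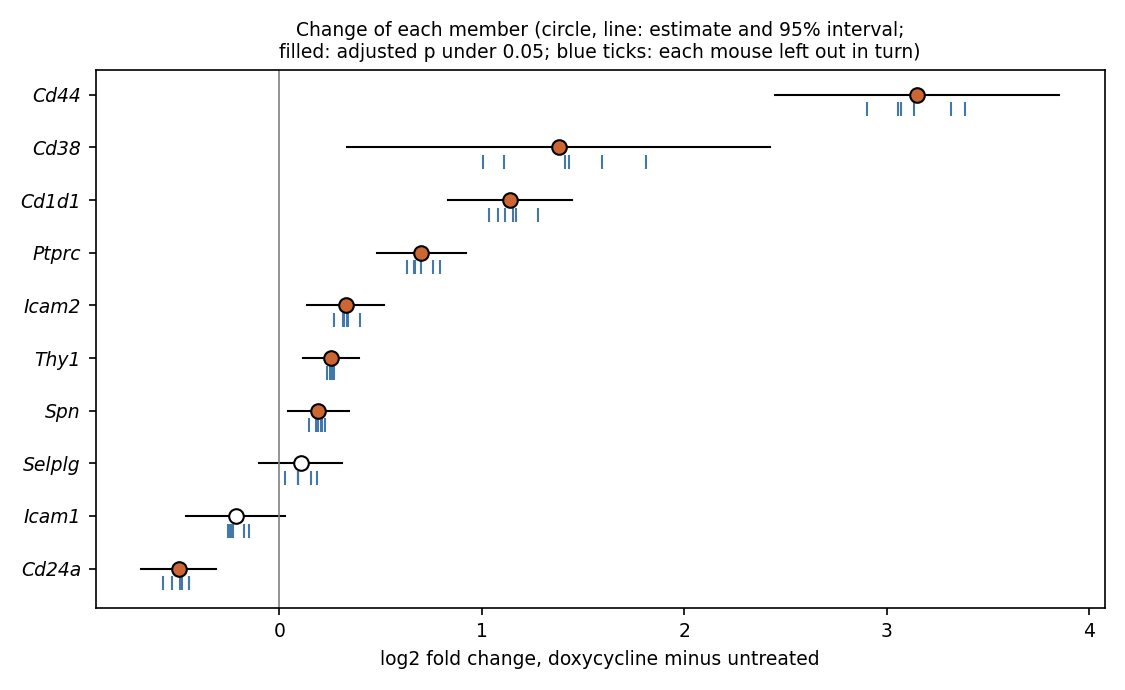
Log2 fold change (horizontal axis, doxycycline minus untreated) of each gene with its 95% interval, filled where the adjusted p was under 0.05, and the estimate with each mouse left out in turn as blue ticks. Cd44 stands at 3.15 and Cd24a at -0.50, while the intervals of Selplg and Icam1 cross 0.

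Per length, Thy1 was by far the most abundant of the 10 transcripts in both groups. It held 1016 ± 20.6 RPKM in untreated and 1212 ± 15.8 RPKM in doxycycline mice (SD, n = 3), which was 65.5% and 66.5% of the summed RPKM of the 10 genes. In the untreated mice the order below it was Cd24a, Ptprc, Spn, Icam2, Selplg, Cd1d1, Icam1, Cd44 and Cd38. No neighbours in that order overlapped over the 3 mice.

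After doxycycline Ptprc and Cd24a had changed places. Cd24a went from 233 ± 9.08 to 165 ± 15.8 RPKM and Ptprc from 171 ± 20.2 to 278 ± 17.5 RPKM. The ratio of Ptprc to Cd24a in RPKM was 0.808, 0.694 and 0.696 in the untreated mice and 1.59, 1.81 and 1.67 in the doxycycline mice. Cd44, at 0.717 ± 0.144 RPKM before, reached 6.36 ± 2.12 RPKM and now overlapped Icam1 at 4.53 ± 0.30 RPKM. Cd1d1, at 20.6 ± 3.67 RPKM, overlapped Selplg at 25.0 ± 1.10 RPKM, and the other neighbours did not overlap. Among all tested genes, the RPKM of Cd44 moved from above 14.6% of them to above 39.4%, so Cd44 remained in the lower part of the range even after its rise.

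**Figure D3:**
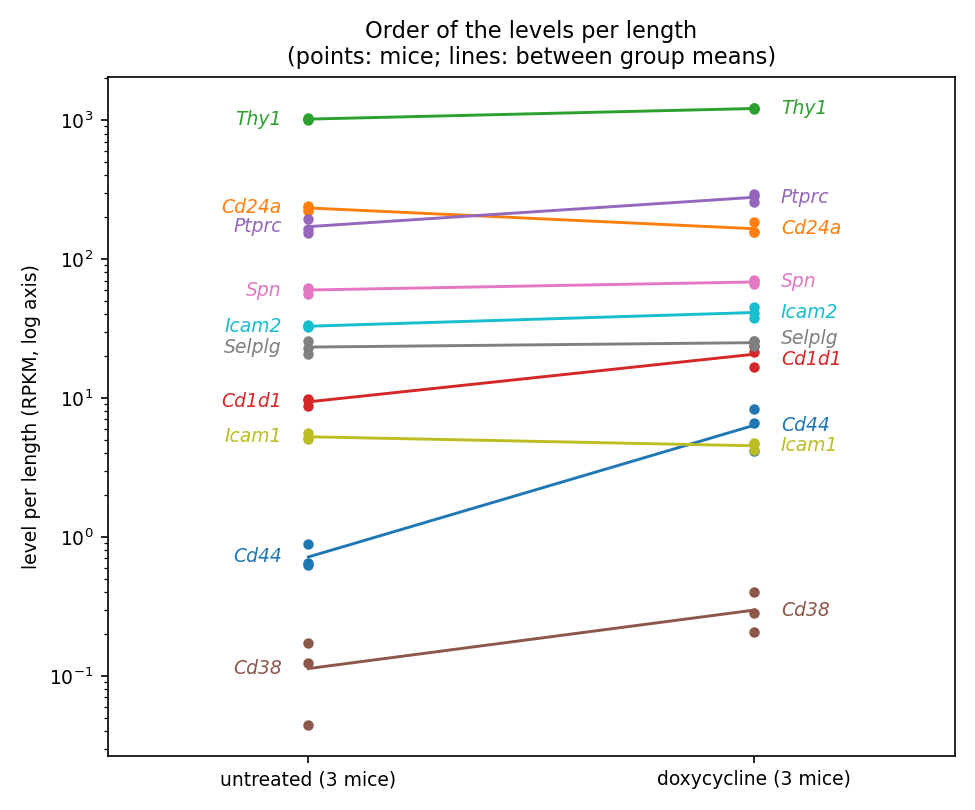
Level per length (RPKM, log axis) of the 10 genes in the 3 untreated (left) and 3 doxycycline mice (right), points for mice and lines between group means. The lines of Cd24a and Ptprc cross, as do those of Cd44 and Icam1, and Thy1 is the highest on both sides.

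Single mice held a similar place across many of the 10 genes. Untreated mouse 3 had the lowest CPM of its group in 8 of the 10 genes, all but Cd1d1 and Icam2, and untreated mouse 1 the highest in 7. Doxycycline mouse 3 was the lowest of its group in 7 genes (Cd44, Cd24a, Thy1, Cd1d1, Ptprc, Cd38 and Icam2). Doxycycline mouse 2 was the highest in 5 and the lowest in 2 (Selplg and Icam1). The 2 sequencing runs of the same RNA differed by at most 2.15% for Thy1, Cd24a, Ptprc and Spn, and by at most 12.3% for Cd1d1, Selplg and Icam2. For the genes with few counts the largest difference between runs was 23.8% (Cd44), 23.6% (Icam1) and 49.6% (Cd38).

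Transcripts used as markers of other spleen cells were low, but several moved with the treatment. The 11 myeloid markers summed to 26.6 to 46.9 CPM in untreated and 71.2 to 93.5 CPM in doxycycline mice. Of these, 5 rose and 3 fell. Itgam, also an integrin gene of the list below, made up most of the difference. Without it the sums were 16.9 to 36.2 and 33.4 to 45.2 CPM, which overlap, but these sums mix genes that moved in opposite directions. By group means, Csf1r rose from 4.51 to 15.4 CPM, Adgre1 from 1.51 to 5.68, Cd68 from 3.35 to 6.29 and Fcgr3 from 0.540 to 1.91. Mpo fell from 3.94 to 0.657 CPM, S100a8 from 3.68 to 1.48 and S100a9 from 5.06 to 2.43. The neutrophil and macrophage marker Lyz2 was at 2.91 ± 0.71 and 3.41 ± 0.28 CPM (SD, n = 3). The 8 erythroid markers found summed to 13.9, 7.86 and 61.5 CPM in untreated mice 1, 2 and 3 and to 86.9 to 110.6 CPM in doxycycline mice, and 3 of them passed the test, all higher. Untreated mouse 3 had the highest sum of its group for these erythroid markers.

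Markers that define the remaining cell types were mostly near 0. The 8 B-cell markers summed to 1.11 to 1.60 and 1.80 to 2.97 CPM, with Pax5 at 0 counts in all 6 mice. Of the B-cell genes tested 1 rose, Cd22. The NK-cell markers other than Gzma summed to 0.366 to 0.503 and 0.176 to 0.276 CPM. Gzma itself was at 1153 ± 309 and 694 ± 323 CPM and did not pass (edgeR adjusted p = 0.228), and Klrb1c fell. The 5 platelet markers summed to 1.30 to 1.63 and 1.88 to 1.98 CPM, and the pair that was tested, Gp1ba and Itga2b, had edgeR adjusted p-values of 0.074 and 0.794. For endothelium and stroma, Dcn was at 0 counts in all mice and Cdh5, Kdr, Tek and Col3a1 were below 1 CPM. The list summed to 342 to 413 and 359 to 366 CPM, but all 4 of its tested genes passed, in both directions. Pdgfrb, a growth factor receptor gene, fell from 136 ± 30.3 to 17.9 ± 5.32 CPM (edgeR adjusted p = 0.00050). Pecam1, which encodes CD31, rose from 134 ± 15.6 to 206 ± 6.33 CPM, and the collagen genes were higher too, Col1a1 by 0.97 ± 0.15 and Col1a2 by 0.27 ± 0.09 on the log2 scale (adjusted p of 0.00085 for Pecam1, 0.0012 for Col1a1 and 0.028 for Col1a2 in edgeR). Whether these marker transcripts came from other cells or from the leukemia cells themselves was not tested. The part of other cells in the changes of Cd44, Cd38, Ptprc and the other genes was not tested either. In bulk samples, fewer cells of a type and less RNA per cell cannot be told apart.

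The genes around the 10 were read from lists by function, and the share of each list that passed is to be set against 50.0% of all tested genes. The list of O-glycan and sialyl Lewis x enzymes holds genes for the sugars of CD43, PSGL-1, CD44 and CD45. It also holds sulfotransferase and other glycan genes. Of 25 tested, 8 rose and 5 fell (52.0%, near the background), with a median log2 fold change of 0.13. The sialyltransferase genes went both ways. St3gal2, which sialylates the galactose of the O-glycan core, rose from 30.0 ± 8.85 to 115 ± 11.0 CPM, whereas St6galnac4 and St6galnac6 fell by 0.80 ± 0.10 and 0.96 ± 0.12 log2 units. Galnt6, an enzyme that begins O-glycans, rose by 0.55 ± 0.07 log2 units (edgeR adjusted p = 0.00070, 0.00050, 0.00054 and 0.00056 for these 4 genes in that order).

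The GPI-anchor list, which serves Thy1 and Cd24a alike, had 6 genes higher and 4 lower of 26 tested (38.5%), with a median of 0.06. Pigm, a mannosyltransferase of the anchor, rose by 0.79 ± 0.11 log2 units, and Pgap1, which remodels the anchor's lipid, by 1.48 ± 0.22. Pigw fell by 0.57 ± 0.12 and Gpaa1, a subunit of the transamidase that attaches the anchor, by 0.36 ± 0.08 (edgeR adjusted p = 0.00065, 0.0012, 0.0044 and 0.0046). The 2 GPI-anchored members moved in opposite directions, Thy1 up and Cd24a down.

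Among the cytoskeletal linkers of CD44, CD43 and PSGL-1 and the integrins that bind ICAMs, 7 of 12 genes rose and 3 fell (83.3%), with a median of 0.60. Itgal, the alpha chain of LFA-1, rose from 496 ± 58.9 to 1117 ± 124 CPM and its beta chain Itgb2 from 154 ± 13.7 to 301 ± 30.0 CPM. Itgam, the alpha chain of Mac-1, rose from 9.86 ± 0.82 to 44.1 ± 5.52 CPM. Nf2, encoding the ezrin-related merlin, fell by 0.53 ± 0.07 log2 units (edgeR adjusted p = 0.00015, 0.00017, 2.1e-05 and 0.00050). On the log2 scale the LFA-1 chains rose by 1.17 ± 0.11 and 0.97 ± 0.10, beside the 0.33 ± 0.08 of Icam2, a difference that was not itself tested.

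In the list of CD45 substrates and CD45 splicing factors 3 of 15 genes rose and 3 fell, a share below the background, with a median of -0.05. Ptprcap, encoding a protein that associates with CD45, rose by 0.53 ± 0.06 log2 units, and the phosphatase gene Ptpn22 by 1.20 ± 0.16. The splicing factor genes Srsf1 and Sfpq fell by 0.45 ± 0.09 and 0.27 ± 0.06 (edgeR adjusted p = 0.00040, 0.00099, 0.0030 and 0.0079). Lck, a kinase on which CD45 acts, was at 1301 ± 60.1 and 1393 ± 104 CPM and did not pass (edgeR adjusted p = 0.310). Hnrnpll, a regulator of CD45 splicing, was at 227 ± 8.35 and 243 ± 8.38 CPM and did not pass (edgeR adjusted p = 0.213).

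In the CD1d list 6 of 13 genes rose and 2 fell (61.5%), with a median of 0.26. Besides Cd1d2, those that rose were Gm2a and Npc2, which help to load or carry lipids, by 0.75 ± 0.08 and 0.44 ± 0.09 log2 units, and the protease gene Ctss by 1.54 ± 0.29 (edgeR adjusted p = 0.00022, 0.0042 and 0.0029), as well as Ctsl and Ap3d1. Those that fell were Canx, by 0.40 ± 0.09, and Calr, by 0.24 ± 0.08 log2 units (edgeR adjusted p = 0.0074 and 0.039). B2m, the light chain of CD1d, was at 561 ± 49.6 and 481 ± 67.5 CPM and did not pass (edgeR adjusted p = 0.122).

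The list of NAD and nucleotide genes holds enzymes and a receptor at the cell surface together with Nampt, Nmnat1 and Nadk, which serve NAD metabolism inside the cell. Of 10 tested, 4 rose and 3 fell (70.0%), with a median of 0.74. P2rx7, encoding an ATP-gated channel, rose from 35.0 ± 6.42 to 212 ± 13.8 CPM. Bst1, the paralogue of Cd38, fell from 43.1 ± 6.48 to 20.1 ± 4.23 CPM. Of the intracellular enzymes Nadk and Nampt fell, Nampt by 0.94 ± 0.13 log2 units, whereas Nmnat1 rose by 0.98 ± 0.17 (edgeR adjusted p = 2.1e-05 for P2rx7, 0.0017 for Bst1, 0.0010 for Nampt and 0.0021 for Nmnat1).

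Of the other surface antigens by which thymocytes are staged, most moved. Among 23 tested, 13 rose and 7 fell (87.0%), and 19 of these 20 changed at least 2-fold, 13 higher and 6 lower. Of these, the costimulatory receptor gene Cd27 (log2 fold change 1.11 ± 0.07), Cd5 (1.49 ± 0.12), the coreceptor gene Cd8a (2.02 ± 0.18) and the adhesion receptor gene Cd2 (1.16 ± 0.12) had the smallest p-values, 3.9e-05, 0.00010, 0.00024 and 0.00030 after adjustment in edgeR. The median of this list was 1.16, beside 0.29 for the 10 glycoprotein genes.

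**Figure D4:**
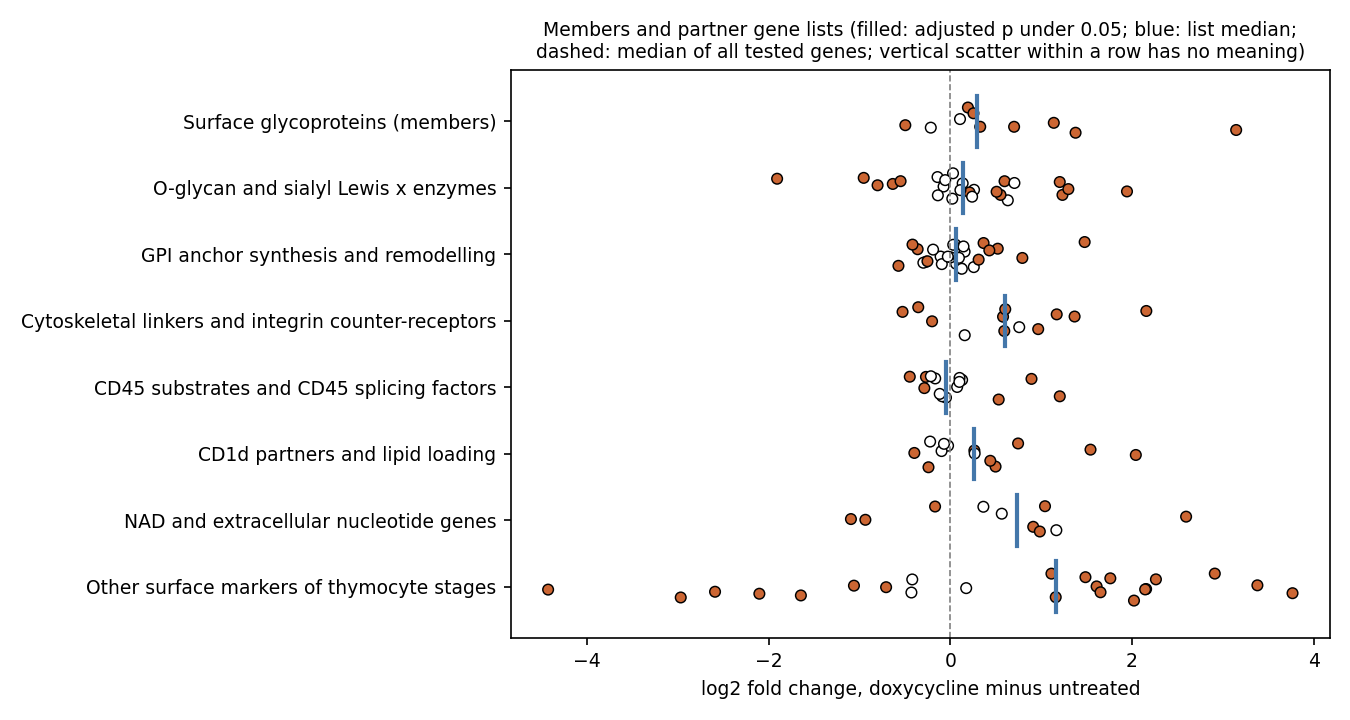
Log2 fold change (horizontal axis) of every tested gene of the 10 glycoprotein genes and of 7 related lists (rows), filled where the adjusted p was under 0.05, with the list median in blue and the median of all tested genes dashed. The row of other stage markers is the widest, and its median is 1.16.

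Genes with the most similar profiles over the 6 mice were found by Pearson correlation of log2 CPM, in which the group difference is included. The nearest genes were 2610307P16Rik and Rapgef6 for Cd44, Cnih4 and Zfp59 for Cd24a, Tspo and Dram2 for Thy1, Araf and Traf3ip3 for Cd1d1, and Rab2b and Slc28a2 for Ptprc. They were Tlr13 and Ctsh for Cd38, Cox16 and Stx11 for Spn, Cript and Cers2 for Selplg, Ccdc43 and Usp1 for Icam1, and Atl2 and Maml1 for Icam2. These correlations ran from 0.986 to 0.9996 (description only, n = 6 mice). The number of genes with a correlation over 0.9, among 12739 compared, was 2090 for Cd44 and 2226 for Cd1d1 but 64 for Selplg.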

How the data were processed

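The deposited table holds raw counts for each Entrez identifier, with a gene length and 1 column per sequencing run. The submitters' processing notes name CASAVA 1.8.1, featureCounts and mm10. Not given in the sources used here are the aligner, annotation, strand setting and treatment of multiply matching reads. RefSeq (GRCm38) symbols matched 25275 of 27179 identifiers (93.0%). Identifiers without one stayed in the totals and tests. Both runs were summed per mouse, so n counts mice. All genes were tested with edgeR 4.0.16 (R 4.3.3): filterByExpr (13134 genes kept), TMM, robust quasi-likelihood F test, Benjamini-Hochberg adjustment over all of them, threshold 0.05. SE is the absolute log2 fold change over the square root of F, and 95% intervals use the fit's degrees of freedom. Sharing of sequence was counted in 40-base stretches of GENCODE M21 transcripts. On simulated counts for these 13134 genes and both groups, 200 genes were changed in each of 20 draws. The test recovered 48.6% of 1.5-fold, 76.2% of 2-fold, 95.2% of 4-fold and 97.9% of 8-fold changes. On average 8.79% of its calls were false (6.63% to 14.0%), above the threshold of 5%. In the data 6571 genes were called, far more than the 200 changed, so these shares need not hold for the comparison reported here. Alternatives were 12 other settings (normalization, filter, DESeq2 1.42.0, limma-voom 3.58.1, single runs, the replicate number as a block), each mouse left out in turn, and 2 mice left out together. The smallest exact permutation p that 3 against 3 mice allow is 0.1. The genes and lists were chosen with earlier results of these data known. Named genes of a list are its 4 with the smallest p, and the 2 nearest profiles per gene. Others (Lck, Hnrnpll, B2m, Canx, Calr, Lyz2, Ctsl, Ap3d1, Nadk, and markers other than the leading 4) were named after their values were seen. Hbb-b2 and Hbb-bt had no match.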

Additional observations from a re-analysis of the deposited data

How the results depend on the processing

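Over 19 alternatives, the number of glycoprotein genes that rose ran from 5 to 7 (7 in the comparison as reported), and 1 fell in each. With a single mouse left out in turn it ran from 5 to 6. The calls over all genes ran from 4869 to 7421 (6571 as reported) and took 35.7% to 56.5% of the genes tested. Cd44, Cd24a, Cd1d1, Ptprc and Icam2 passed under all 19 alternatives, and Selplg and Icam1 under none. No log2 fold change of the 10 genes turned its sign. Spn lost its call in 9 alternatives, among them no filter (adjusted p = 0.065), limma-voom with quality weights (0.0507) and the 2 mice left out together (0.155). Cd38 lost its call in 7 of the 17 alternatives that tested it, with limma-voom and quality weights at 0.068. It was not tested with the filter of over 1 CPM or in run 2 alone. Thy1 lost its call without untreated mouse 2. With the replicate number as a block, 6 genes rose and 1 fell, 6259 of all genes passed and Spn had an adjusted p = 0.059. Same-numbered mice deviated from their group means with correlations of 0.16, -0.01 and -0.10. Differently numbered mice gave -0.19 to 0.17, so the numbers did not stand out as pairs. With 3 mice per group this cannot decide whether the mice were paired. Depth limits Cd38, with 4 to 54 counts per mouse.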
